A study of Mus musculus with 2 samples.

Results

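Satb1, Bcl11a and Bcl11b, 3 genes for chromatin-binding transcription factors, were examined by RNA-seq in mouse embryonic stem cells (ESCs). They were taken by symbol from a deposited table of 24532 genes, where each symbol has 1 row. The libraries were E14, a mouse ESC line with wild-type Sox2, and E14-Sox2 TA/WT, cells derived from E14 by CRISPR/Cas9 editing with a single-stranded DNA donor and heterozygous for the T258A change of Sox2 (TA/WT cells from here on). They were grown out of single edited cells, and whether the library came from 1 clone or more is not given in the sources used here. The parental cells were cultured with serum and leukemia inhibitory factor. The edited cells were also maintained with inhibitors of Mek and Gsk3, which were withdrawn before the experiments. There was 1 library per genotype, so the genotype, the clonal origin and the culture history cannot be told apart. Differences between the libraries were not checked in replicates and carry no p-value. Totals were 60263536 reads in E14 and 44609228 in TA/WT cells. The 95% intervals below cover the counting of reads only. They take reads as independent, whereas reads copied by PCR are not independent molecules.

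Satb1 is a nuclear protein with CUT domains and a homeodomain that binds base-unpairing AT-rich DNA, tethers chromatin loops and recruits chromatin-modifying enzymes. It is best known from thymocytes. In ESCs it has been linked to the balance between Nanog and differentiation. Bcl11a and Bcl11b are paralogous C2H2 zinc finger repressors, also called Ctip1 and Ctip2 because they bind COUP-TF nuclear receptors. They recruit the NuRD deacetylase complex through a short motif at the N-terminus and also associate with BAF remodeling complexes. Bcl11a acts in B cell development and in neurons, and Bcl11b in T cell commitment and in corticospinal neurons.

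All 3 genes had higher expression in TA/WT cells than in E14 cells. Bcl11a differed most, at 8.02-fold by TPM (a level scaled to transcript length and to the library sum), from 25 reads in E14. Satb1 was 2.05-fold higher and Bcl11b 1.90-fold higher. Among genes whose TPM reached 10 in either library, 4.17% (379 of 9094) were more than 2-fold higher and 4.07% more than 2-fold lower. Satb1 alone of the 3 genes passed this filter, only through TA/WT cells (TPM 15.1, against 7.36 in E14), and it was past 2-fold. The TPM of all 3 reached 1 in either library, that of Bcl11a and Bcl11b only in TA/WT cells. At that filter 6.45% of 13729 genes were more than 2-fold higher, among them Satb1 and Bcl11a, and 9.95% more than 2-fold lower. By read counts scaled to library size 5.14% were more than 2-fold higher, among them Bcl11a, and 12.0% (1646 genes) were more than 2-fold lower. Of these 13729 genes, 0.758% had a TPM ratio above that of Bcl11a, 6.08% above that of Satb1 and 7.47% above that of Bcl11b. A gene that passes a filter only through TA/WT cells is favoured to look higher there. These shares therefore describe the place of the genes and are not a test.

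**Figure D1:**
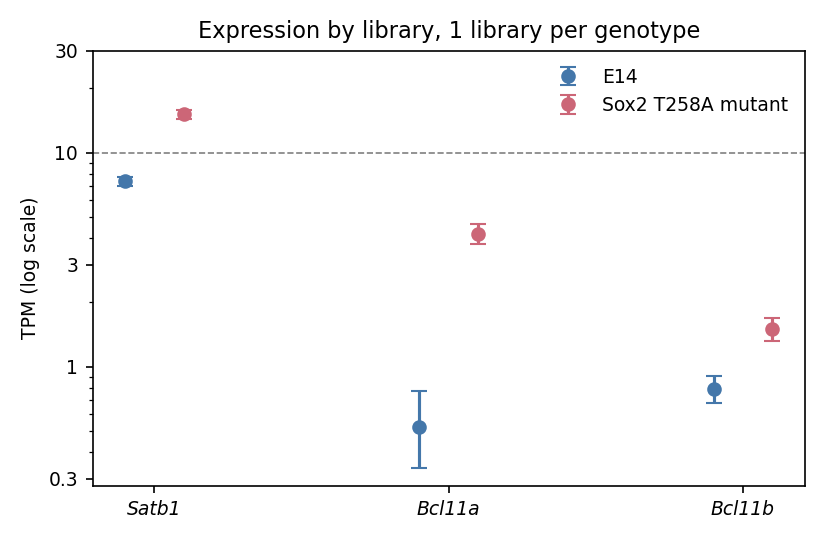
TPM (log scale) of Satb1, Bcl11a and Bcl11b in the E14 library and the E14-Sox2 TA/WT library (Sox2 T258A mutant). Points are single libraries, bars are 95% Poisson intervals of the read count placed on the TPM scale, and the dashed line marks a TPM of 10. All 3 genes lie higher in the mutant, and the bars cover the counting of reads only.

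Satb1 (Entrez gene 20230) lies on chromosome 17 from 51736187 to 51833290 on the minus strand (RefSeq, GRCm38). It had 1459 reads in E14 (exact Poisson 95% interval 1385 to 1536) and 2001 reads in TA/WT cells (1914 to 2091). Its TPM was 7.36 in E14 and 15.1 in TA/WT cells. The log2 TPM ratio was 1.04, with a Clopper-Pearson interval of 0.94 to 1.14 that includes the 2-fold line. By reads scaled to the library total (CPM, which ignores transcript length), the ratio was 1.85-fold (1.73 to 1.98), below 2-fold. Satb1 was therefore past 2-fold by TPM and short of it by CPM. Of the 2094 genes within 1.5-fold of its E14 TPM, 6.02% were more than 2-fold higher. The difference narrowed to a log2 ratio of 0.70 when trends on GC content and transcript length were removed.

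Bcl11a (Entrez gene 14025) lies on chromosome 11 from 24076564 to 24173558 on the plus strand. It had 25 reads in E14 (16.2 to 36.9) and 328 reads in TA/WT cells (293 to 365). Its TPM was 0.522 in E14 and 4.18 in TA/WT cells, and it stayed under a TPM of 10 in both. The log2 TPM ratio was 3.0 (2.42 to 3.65), or 5.34-fold to 12.6-fold. By CPM the difference was larger, at 17.7-fold (11.8 to 27.8), or 4.15 on the log2 scale. Of genes with reads in both libraries whose TPM reached 1 in either, 19 had a higher CPM ratio. Large ratios were more frequent among low genes, since 14.8% of the 1107 genes within 1.5-fold of the E14 TPM of Bcl11a were more than 2-fold higher.

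Bcl11b (Entrez gene 58208) lies on chromosome 12 from 107910403 to 108004145 on the minus strand. It had 197 reads in E14 (170 to 227) and 251 reads in TA/WT cells (221 to 284). Its TPM was 0.786 in E14 and 1.498 in TA/WT cells. The log2 TPM ratio was 0.93 (0.65 to 1.21) and the CPM ratio was 1.72-fold (1.42 to 2.08), so at this depth Bcl11b was not resolved from a 2-fold difference on either scale. Of the 1210 genes within 1.5-fold of its E14 TPM, 13.1% were more than 2-fold higher.

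The order of the levels differed between the libraries. In E14 the TPM of Satb1 was 14.1 times that of Bcl11a, and Bcl11b and Bcl11a were neighbours whose intervals overlapped (0.680 to 0.904 and 0.338 to 0.770). In TA/WT cells Satb1 was again highest, at 3.61 times Bcl11a, but Bcl11a (3.74 to 4.66) was above Bcl11b (1.32 to 1.70) without overlap. Of the reads of both Bcl11 paralogs, Bcl11a held 11.3% in E14 (25 of 222, exact binomial interval 7.42% to 16.2%) and 56.6% in TA/WT cells (328 of 579, 52.5% to 60.7%). These read shares are not scaled to length. By TPM, Bcl11a held 39.9% of the sum of both in E14 and 73.6% in TA/WT cells, and that sum went from 1.31 to 5.68. Among 16764 genes with reads in TA/WT cells, Satb1 ranked 7453 by TPM, Bcl11a 10525 and Bcl11b 12322, against ranks of 9435, 14267 and 13687 among 17645 genes in E14.

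The TPM ratio of Bcl11a was smaller than its read ratio, and the length to which its reads were scaled was larger in TA/WT cells. Why these lengths differed was not tested. The FPKM values (fragments per kilobase of transcript, scaled to library size) deposited beside the counts give this length as the reads divided by the FPKM and by the library total. For 8877 genes with 1 listed transcript, the length so computed was a median of 1.02 times the annotated length, and 72.3% of these genes lay within 5% of it. For Satb1 it was 6.39 kb in E14 and 6.37 kb in TA/WT cells, next to its longest transcripts of 6.24 kb and 6.19 kb. For Bcl11b it was 8.08 kb and 8.06 kb, next to its longest transcript of 8.11 kb. For Bcl11a it was 1.55 kb in E14 and 3.77 kb in TA/WT cells, a difference of 1.29 on the log2 scale.

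That shift was unusual in the table. Of 13764 genes with at least 20 reads in both libraries, 0.0218% (3 genes, Hist1h2be, Bcl11a and Zfp467) were more than 2-fold longer in TA/WT cells and 0 were more than 2-fold shorter, and the central 98% of genes lay between -0.07 and 0.11 on the log2 scale. The transcripts of Bcl11a listed in the table have annotated lengths of 1505, 2329, 3061 and 5989 bases (GENCODE M21, GRCm38). The shortest starts at 24080670, downstream of the other 3 starts, which lie between 24078056 and 24078173. If the FPKM of a gene is the sum over its transcripts, 92.6% to 98.5% of the 25 reads in E14 were assigned to the transcript of 1505 bases. In TA/WT cells at most 20.5% of the 328 reads can have been, and at least 36.1% were assigned to that of 5989 bases. The table gives no values per transcript, and an assignment of 25 reads to 4 transcripts that share exons is imprecise.

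**Figure D2:**
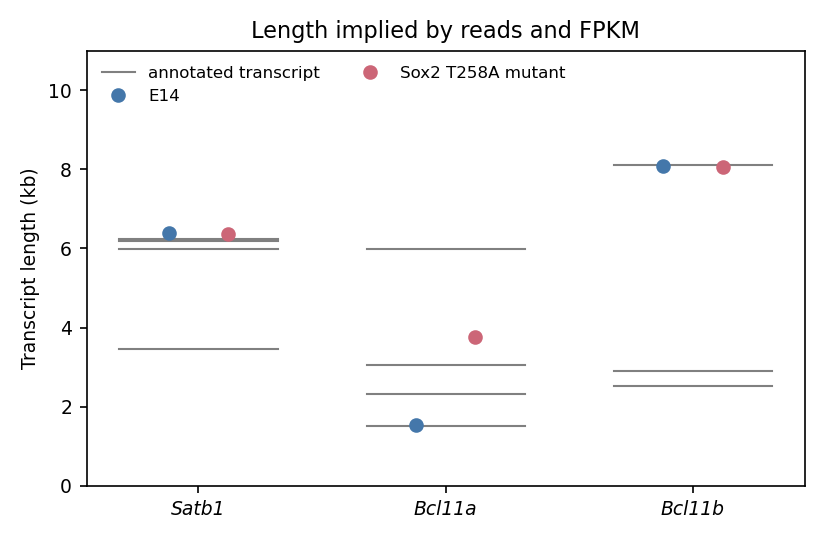
Length in kb implied by reads and FPKM for Satb1, Bcl11a and Bcl11b in each library (points), with the annotated lengths of the transcripts listed in the table (grey lines). The points of Satb1 and Bcl11b lie together at their longest transcripts, whereas those of Bcl11a lie at 1.55 kb in E14, on the line of the shortest transcript, and at 3.77 kb in the mutant.

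**Figure D3:**
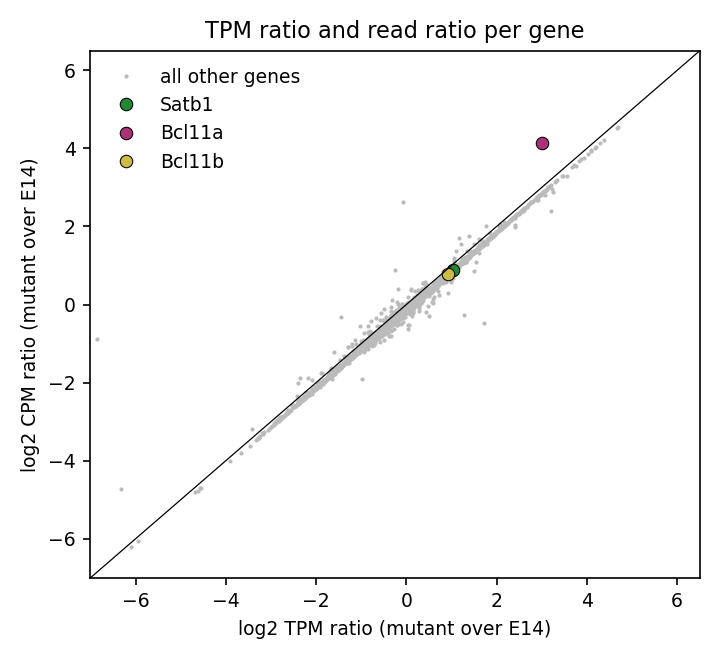
Log2 CPM ratio against log2 TPM ratio (mutant over E14) for 13112 genes with at least 20 reads in both libraries whose TPM reached 1 in either, with the line of equality. Of these genes 99.2% lie below the line, with a median offset of -0.14, Satb1 and Bcl11b among them, while Bcl11a lies 1.14 above it.

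Shared sequence and overlapping genes were checked because the handling of strand and of shared reads is not given in the sources used here. Of the 50-base words in the listed transcripts, 1.95% of Satb1, 2.91% of Bcl11a and 0.270% of Bcl11b also occurred in transcripts of other genes. Those of Bcl11a were shared with 4930538E20Rik, which runs antisense to it and overlaps 316 bases of its exons, and those of Satb1 with Gm36931 on the same strand and Gm6934 on the opposite strand. None of these 3 overlapping genes has a row in the table, so reads from them cannot be told apart from those of the members. Words shared among the members themselves were left out of these shares, so sharing between Bcl11a and Bcl11b was not tested.

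None of the genes counted around Bcl11a or Bcl11b was more than 2-fold higher. Counting genes of mean TPM 1 or more, 4 lay within 500 kb of Bcl11a, with log2 ratios of -0.30 to 0.94, and 5 lay within 500 kb of Bcl11b, with ratios of -1.87 to 0.70. Satb1 had no such neighbour. The chromosome medians were 0.00 for chromosome 17, 0.02 for chromosome 11 and 0.06 for chromosome 12, beside 0.04 for all 13269 genes.

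Sequences around the transcription starts are shown because Satb1 and Bcl11b are among the putative direct targets of Sox2 in the study and all 3 genes were higher. The study based that list on these libraries, on published Sox2 ChIP signal in the region of each gene and on a microarray of streptozotocin treatment. Those ChIP and microarray data were not examined here. RefSeq (GRCm38.p6) gave 7 windows for the 3 genes, each from 250 bases before a start to 50 after it. Both strands were searched for the Sox core letters ACAAAG and ACAATG, which differ in 1 letter, and for the octamer ATGCAAAT of Oct4. A Sox core was found in 28.6% of all 32851 windows and the octamer in 1.74%. Capitals mark a match. No match lies in the window of Bcl11a, which belongs to the start of the shortest transcript, in that of Bcl11b, or in the Satb1 window at the start of its transcript of 6243 bases. Satb1 has 5 windows, of which 2 are shown, that one and one with a match. The other annotated starts of Bcl11a, between 24078056 and 24078173, lie outside its window and were not searched.
Bcl11a, chr11:24080445-24080744, plus strand: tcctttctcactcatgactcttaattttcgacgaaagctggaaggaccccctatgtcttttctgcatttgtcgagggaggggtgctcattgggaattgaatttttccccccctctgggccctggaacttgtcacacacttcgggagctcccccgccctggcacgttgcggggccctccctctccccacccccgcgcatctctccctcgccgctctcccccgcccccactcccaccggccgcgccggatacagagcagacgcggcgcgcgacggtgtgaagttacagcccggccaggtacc
Bcl11b, chr12:108003365-108003664, minus strand: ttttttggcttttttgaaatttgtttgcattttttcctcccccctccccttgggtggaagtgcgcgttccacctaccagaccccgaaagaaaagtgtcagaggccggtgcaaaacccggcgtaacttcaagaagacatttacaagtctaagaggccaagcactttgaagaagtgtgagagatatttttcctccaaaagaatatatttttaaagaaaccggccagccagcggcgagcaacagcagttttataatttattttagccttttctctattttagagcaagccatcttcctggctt
Satb1, chr17:51832598-51832897, minus strand: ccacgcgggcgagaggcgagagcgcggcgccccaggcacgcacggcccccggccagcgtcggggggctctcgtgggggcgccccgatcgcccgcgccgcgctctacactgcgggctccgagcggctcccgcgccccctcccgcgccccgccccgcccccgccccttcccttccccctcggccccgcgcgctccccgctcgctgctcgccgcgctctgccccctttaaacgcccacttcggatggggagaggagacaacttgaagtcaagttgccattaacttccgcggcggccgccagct
Satb1, chr17:51812135-51812434, minus strand: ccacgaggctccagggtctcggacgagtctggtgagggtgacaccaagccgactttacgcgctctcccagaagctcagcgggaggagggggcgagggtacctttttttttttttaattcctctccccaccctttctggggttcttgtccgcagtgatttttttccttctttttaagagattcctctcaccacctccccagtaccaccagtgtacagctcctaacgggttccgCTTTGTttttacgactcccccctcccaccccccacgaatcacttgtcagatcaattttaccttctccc
The last window holds ACAAAG on the reverse strand, 18 bases before the start, and the same site is in an overlapping window, so that 2 of the 7 windows hold a match. The starts of these 2 windows lie 2820 and 2950 bases from the nearest start of a listed Satb1 transcript. The Satb1 window at the transcript of 6243 bases holds 45 CpG sites against a median of 7 over all windows, and the other 4 Satb1 windows hold 3 to 13. The Bcl11a window holds 23 and the Bcl11b window 9. A match is a description of letters, and its absence from a window says nothing of binding elsewhere.

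The proteins through which these factors act were compared next, as medians of log2((TPM + 0.1) ratio) over genes whose mean TPM was 1 or more. Over all 13269 such genes the median was 0.04 and 53.2% were higher. By CPM their median log2 ratio was -0.10, so counts by CPM below carry that offset. At the slightly different filter of a TPM of 1 in either library, 6.45% of 13729 genes were more than 2-fold higher and 9.95% more than 2-fold lower. The 14 NuRD subunits, the deacetylase and remodeling complex recruited by Bcl11 proteins, had a median of 0.29, with 11 higher (10 by CPM), 3 lower and 0 past 2-fold. They ranged from Mta3 (log2 TPM ratio -0.30) to Gatad2b (0.72), and the remodeling ATPase Chd4 went from a TPM of 168 to 271 (0.69). The catalytic subunits Hdac1 (0.22) and Hdac2 (-0.08) lay within 2-fold of E14.

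Zinc finger factors that carry the same kind of NuRD-binding motif at the N-terminus as the Bcl11 proteins had a median of 1.23, above the other lists of partners and relatives, with 5 of 6 expressed genes higher and 4 past 2-fold. Sall1 went from 7274 to 14147 reads and a TPM of 43.9 to 128 (log2 ratio 1.54). Sall3 went from 230 to 845 reads (2.46, 2.25 to 2.68). Sall2 (1.39) and Zfp827 (1.11) were also past 2-fold, and Sall4, the most abundant of these factors, was at 0.61. With the trends on GC content and length removed, 3 of the 6 stayed past 2-fold, with Zfp827 at 0.85. Zfpm1, a Gata cofactor, was lower (-0.44), and Zfpm2, with 16 and 50 reads, was under the expression filter. Sall2 is one of the study's putative repressed genes, so its direction is not independent evidence.

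Partners reported for Bcl11a or Bcl11b had a median of 0.56, with 7 of 7 expressed genes higher. Nr2f6 (0.06) was at -0.08 by CPM, beside a median of -0.10 for all genes on that scale. The deacetylase Sirt1 was the 1 gene past 2-fold, from 2928 to 6237 reads and a TPM of 23.8 to 75.6 (1.67, 1.60 to 1.73). The corepressors Ncor1 (0.76), Rcor1 (0.67) and Sin3a (0.56) were higher by less. With the GC and length trends removed, Ncor1 was at 0.29, Rcor1 at 0.62, Sin3a at 0.33 and Sirt1 at 1.42. The COUP-TF receptors that gave the Ctip names were barely detected, with 14 and 2 reads for Nr2f1 and 13 and 11 reads for Nr2f2.

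Of the 21 BAF subunits, 14 were higher (13 by CPM) and 7 lower, with a median of 0.18. Arid1a (1.49) and Arid1b (1.21), the large DNA-binding subunits, were past 2-fold, and Arid1b was at 0.92 with the trends removed. The catalytic subunit Smarca4 was at 0.63, and Smarca2, its alternative, at -0.42 with 235 and 113 reads.

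For Satb1, 9 partner proteins had a median of 0.53, with 7 higher (6 by CPM) and 0 past 2-fold, from Banp (-0.30) to Pml (0.89). The remodelers with which it acts, Smarca5 (0.62) and Baz1a (0.84), were higher. The acetyltransferases Ep300 (0.61) and Kat2b (0.53) were as well, whereas the corepressor Ctbp1 was at 0.00 (-0.06 to 0.05). With the GC and length trends removed the median of these partners was 0.22, with Smarca5 at 0.15, Ep300 at 0.24, Kat2b at 0.32, Baz1a at 0.51 and Ctbp1 at 0.22. The 11 proteins of the nuclear scaffold and of matrix attachment regions were all higher, from Safb (0.32) to lamin B1 (Lmnb1, 0.82), with a median of 0.56 and 0 past 2-fold. With the GC and length trends removed, 9 of these 11 were higher, with Hnrnpu (-0.04) and Matr3 (-0.17) lower. Of the other CUT homeobox genes compared, the 2 expressed ones lay at or below zero, Cux1 at -0.01 and Cux2 at -0.28. Onecut3 had 34 reads in E14 and 0 in TA/WT cells, which is at least 8.39-fold lower against a floor of 3 reads.

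**Figure D4:**
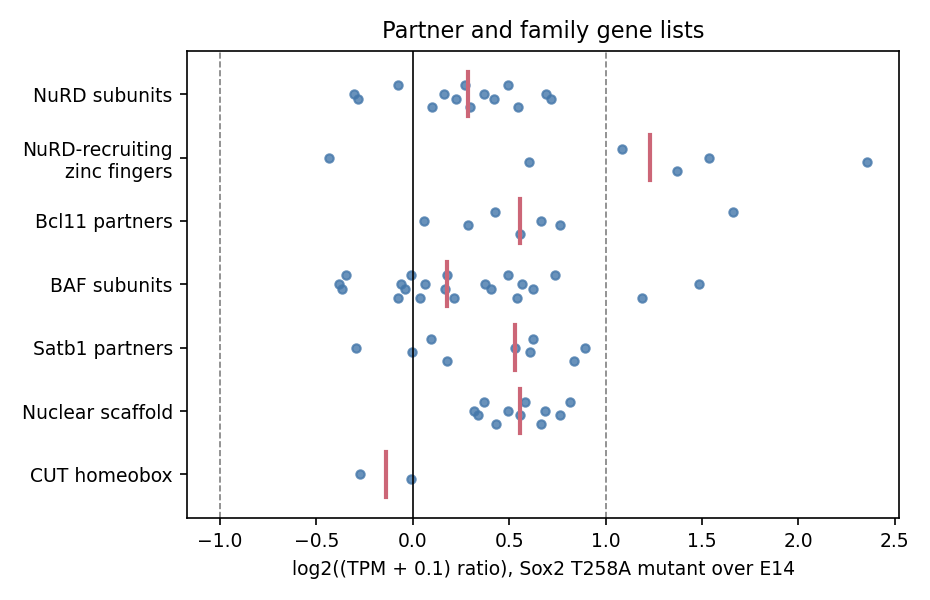
Log2((TPM + 0.1) ratio), mutant over E14, of genes whose mean TPM was 1 or more, in 7 lists of partners and relatives. Points are genes, red bars are list medians, and dashed lines mark 2-fold. The NuRD-recruiting zinc finger factors reach farthest right (median 1.23), and the CUT homeobox genes lie at or below zero.

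Of 4 genes reported as Satb1 targets, 3 were of mean TPM 1 or more and were lower in TA/WT cells. Among all genes at that filter 46.8% were lower. The remaining 1, under the filter, was higher. Nanog, Tbx3 and Klf4, which Satb1 has been reported to hold down in ESCs, were the lower ones. Nanog went from a TPM of 527 to 251 (-1.07), Tbx3 from 154 to 55.3 (-1.47) and Klf4 from 158 to 104 (-0.60). Tbx3 is one of the study's putative activated genes, chosen partly on these libraries, so its direction is not independent evidence, and Nanog and Klf4 are also among the ESC markers. Bcl2, an inhibitor of apoptosis and the higher one, had 41 and 121 reads (2.40) and was under the expression filter. The part of Satb1 in these differences was not tested. Satb1 and Bcl11b are in the study's list of putative genes repressed by Sox2 T258 O-GlcNAc, of which 17 were examined. The study chose them partly on these libraries, so that their direction is not independent evidence. Within that list Satb1 and Bcl11b were near the low end, since the 16 expressed genes ran from 0.85 (Bcl11b) to 4.94 (Fgf5) on the log2((TPM + 0.1) ratio) scale, with Satb1 at 1.03. Bcl11a is not in it. Bcl11b (TPM 0.786 and 1.498, 1.90-fold) met neither the TPM filter nor the 2-fold threshold of the study's methods. Rab25 (1.86-fold) and Cxcl12 (1.77-fold) of that list were also under 2-fold. Sox2 itself had 28936 and 14270 reads and a TPM of 373 and 274 (-0.44).

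Each library was checked for other cell types that express these factors. Of 8 ESC markers, all were at a TPM of at least 104 in both libraries. Of these 5 were lower in TA/WT cells (7 by CPM, where all genes had a median of -0.10) and 3 higher. The markers had a median of -0.28, and Nanog was past 2-fold lower. Their part in the result was not tested. Of 9 lymphocyte markers, the defining genes Ptprc, Cd3g and Rag1 had no reads in either library, and the summed TPM went from 29.0 in E14 to 15.5 in TA/WT cells, most of it Lck (19.1 and 10.4). Of 8 neuron markers, Neurod6 had no reads and Dcx had 0 and 3. Their summed TPM went from 17.7 to 34.1, with Neurod1 (8.89 to 21.4), Elavl4 (0.763 to 2.32) and Map2 (2.65 to 5.07) higher. Elavl3 had a log2 TPM ratio of 0.11 (-0.07 to 0.29) and Snap25 -0.09 (-0.95 to 0.75), and Rbfox3 was lower (-0.55, -1.07 to -0.06). The part of such cells in the result was not tested. Of 7 fibroblast markers, Dcn and Lum had no reads, and the summed TPM went from 49.8 to 19.5, most of it Thy1 (40.1 and 11.4) and next Pdgfrb (6.75 and 2.85). Col1a1 was at 0.15 (-0.05 to 0.35), and Col3a1 had 15 and 151 reads and Col1a2 43 and 109. In bulk RNA, more cells that express a gene and more RNA per cell cannot be told apart.

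The genes nearest to each factor in the plane of log2 TPM in E14 and log2 TPM in TA/WT cells were found among 16257 genes with reads in both libraries. Over 2 libraries such likeness is a description of level and ratio. Bcl11a lay nearest to Erap1 (distance 0.058), Zfp608 (0.12) and Synpo2l (0.22). These had 64 to 93 reads in E14 and 350 to 530 in TA/WT cells, and Zfp608 is among the study's putative repressed genes. Satb1 lay nearest to Zbtb2 (0.047), Cyb5d1 (0.048) and Dcaf12l1 (0.054), and Bcl11b to Faxc (0.083), Gm7904 (0.094) and Prss22 (0.10).

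**Figure D5:**
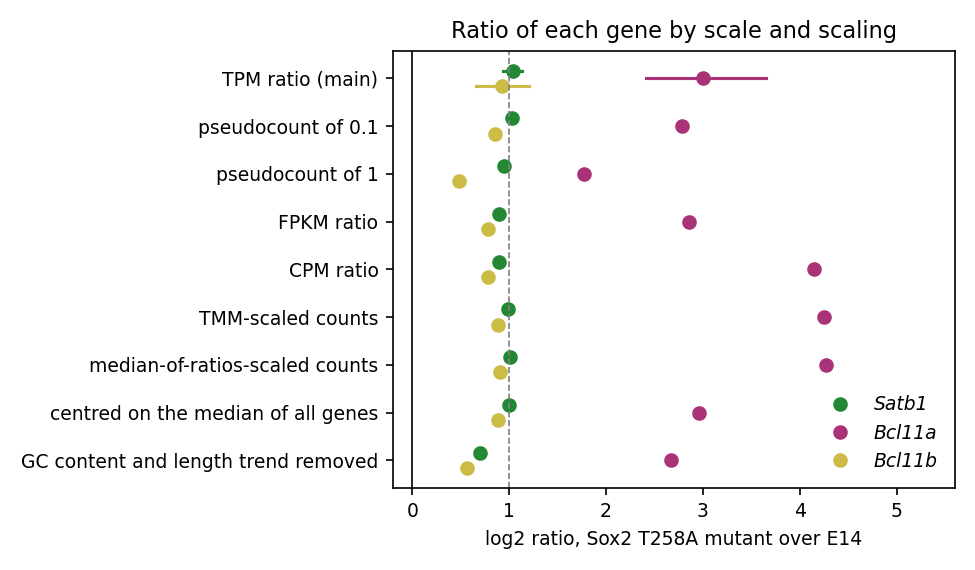
Log2 ratio (mutant over E14) of Satb1, Bcl11a and Bcl11b by scale and scaling, with the 95% counting interval on the TPM ratio in the top row and a dashed line at 2-fold. Every value is above zero, Bcl11a runs from 1.77 to 4.27, and Satb1 and Bcl11b lie near or below the 2-fold line.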

How the data were processed

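PolyA RNA from both lines (E14, and E14-Sox2 TA/WT, here TA/WT cells) was sequenced by the authors on a NovaSeq instrument. The submitters' processing notes name bcl2fastq 2.20.0, Trimmomatic, HISAT2 2.1.0 and StringTie 2.1.3b and the build mm10. The authors deposited read counts, whole numbers without normalization, per gene. FPKM as deposited relates fragments to transcript length and library size. The deposited TPM values sum to 993247 in E14 and 994155 in TA/WT cells. All value columns were used, and every row names a gene.

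The ratio of TPM without a pseudocount was compared after the filter (TPM of 10 or more in either library) and 2-fold threshold of the study's methods, with no test because each genotype has 1 library. Clopper-Pearson intervals (scipy 1.17.1) of the counts were placed on the TPM scale. The calculation was tested on simulated counts. A floor of 3 reads (0.0498 CPM in E14 and 0.0673 in TA/WT cells) set lower bounds. Alternatives were pseudocounts, filters, fold thresholds, FPKM, CPM, TMM (edgeR 4.0.16), median-of-ratios factors (DESeq2 1.42.0), centring and removal of GC and length trends in 20 bins each, with transcript sequences for 99.0% of genes. Gene lists were written from general knowledge, apart from the study's list. Some genes are not reported here and were left out of the lists. The members and lists were chosen with earlier results of these data known. Genes named were the members, Sox2, list extremes, genes past 2-fold, genes needed to say what a list holds, markers and the 3 nearest genes of each member. RefSeq held 24458 of the 24532 gene IDs.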

Additional observations from a re-analysis of the deposited data

How the results depend on the processing

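No paired analysis was possible because each genotype has 1 library. The direction of all 3 genes and of the 6 list medians was the same under every alternative run, but sizes moved, and of 72 alternative values 40 stayed within counting error or within 1.5 times a count. The log2 ratio of Bcl11a (3.0) went to 1.77 with a pseudocount of 1, 4.15 by CPM, 4.25 with TMM and 4.27 with median-of-ratios factors. That of Satb1 (1.04) fell under 2-fold with FPKM (0.89), CPM (0.89), TMM (0.99), a pseudocount of 1 (0.95), centring (0.99) and the GC and length trends removed (0.70). It stayed past 2-fold with median-of-ratios factors (1.01) and a pseudocount of 0.1 (1.03). That of Bcl11b (0.93) went to 0.48 with a pseudocount of 1 and 0.56 with the trends removed. FPKM moved the median of all genes from 0.04 to -0.10.

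The 379 genes higher and 370 lower became 886 and 1366 where TPM reached 1, 1342 and 2019 without a filter, 1291 and 955 at 1.5-fold and 104 and 136 at 3-fold, with 597 lower where it reached 5, by construction of these settings. With TMM the NuRD median was 0.24 and that of Bcl11 partners 0.52. The median of the zinc finger factors was 1.07 for mean TPM of 10 or more and 1.08 at a pseudocount of 1. Chosen after seeing the data, FPKM gave 0.14 for NuRD, 1.10 for the zinc finger factors, 0.41 and 0.39 for Bcl11 and Satb1 partners, 0.42 for the scaffold and 0.035 for BAF, and removal of the trends gave 1.07, 0.33 and 0.22 for the zinc finger factors, Bcl11 partners and Satb1 partners and 0.48 for the scaffold. Depth limits Bcl11a most, with 25 reads in E14, and no alternative stands in for a second culture.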
